A study of Homo sapiens with 12 samples.

Results

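The enzymes that oxidize and conjugate drugs, pollutants and alcohol were described in 12 RNA-seq libraries of human hepatocellular carcinoma cell lines. They were taken by name from the deposited gene table and comprised the cytochrome P450 families CYP1 to CYP4, the UDP-glucuronosyltransferases UGT1A and UGT2B, the sulfotransferases, the cytosolic and kappa class glutathione S-transferases, the alcohol dehydrogenases and the aldehyde dehydrogenases. The rule found 105 of 22963 rows, and it used no measured value. ALDH2, the main acetaldehyde dehydrogenase, has no letter in its name after the digit and was not among them. PLC/PRF5 cells carried either an empty lentiviral vector (the vector group) or the same CMV-driven vector with EGR1 (the EGR1 group), both after puromycin selection. MHCC97H cells were either parental or labelled EGR1 knockout, the latter made with LentiCRISPR-v2 as single clones, and the clone sequenced is not given in the sources used here. Each of the 4 groups had 3 libraries labelled as biological replicates. EGR1 is a zinc-finger transcription factor that responds early to growth and stress signals.

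Foreign and many endogenous compounds are cleared in steps. Cytochrome P450 enzymes, which take electrons from the reductase POR, add or expose a polar group, and UGT, SULT and GST enzymes then attach glucuronic acid, sulfate or glutathione. Ethanol is oxidized by alcohol dehydrogenases to acetaldehyde, which aldehyde dehydrogenases turn into acetate, and the wider aldehyde dehydrogenase family also handles retinal, lipid aldehydes and intermediates of amino acid breakdown. Hepatocytes are the richest source of these enzymes in the body, and hepatocellular carcinoma cell lines retain them to very different degrees.

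Levels are given as FPKM (fragments scaled to transcript length and library size), which is per length. Levels of different genes can be compared only roughly, because sequence shared between genes, described further on, makes some values uncertain. The libraries were also treated with duplex-specific nuclease, and its part in the levels was not tested. Library totals ran from 376335 to 437652 FPKM, and the number of reads was unknown. EGR1 itself was read first. Its FPKM was 1.97, 1.43 and 2.03 in the 3 vector libraries and 56.3, 50.2 and 52.2 in the 3 EGR1 libraries. In MHCC97H it was 20.2, 23.1 and 21.2 in the parental libraries and 35.2, 50.3 and 32.9 in those labelled knockout, so EGR1 mRNA was higher and not lower under that label (log2 fold change 0.83 ± 0.15 (SE), limma adjusted p = 0.00126). With the correction for transcript GC content and length described further on, this difference was 0.49 (limma adjusted p = 0.0487). The MHCC97H groups are therefore named by their labels only. The paper states that its knockout clones were checked by western blot and DNA sequencing. The RNA values do not show whether EGR1 protein was made. Of 9 hepatocyte markers, 8 reached a mean of 1 FPKM in both PLC/PRF5 groups, 4 did in parental MHCC97H cells and 5 in the libraries labelled knockout. Their summed FPKM lay between 1769.7 and 1911 in vector, between 2667 and 3626 in EGR1, between 14.0 and 19.2 in parental cells, and in those labelled knockout between 43.3 and 48.4. Albumin averaged 116 FPKM in vector and 0.885 in parental cells, and SERPINA1 1372 and 0.212. SERPINA1 made up most of the marker sum in PLC/PRF5 cells. The markers that reached 1 FPKM in parental cells were HNF4A at 9.64, FGB at 2.63, TF at 1.44 and APOB at 1.27. TTR was low in both lines, at 0.220 in vector and 0.293 in parental cells. No fibroblast marker of 5 reached 1 FPKM in any group, and PTPRC and CD3E, of 4 leukocyte markers, stayed at or near 0. The summed leukocyte markers lay between 114 and 178 FPKM in vector and between 95.4 and 118 in EGR1, nearly all of it LYZ (lysozyme), and between 0.695 and 0.901 in parental cells and 1.11 and 1.85 in those labelled knockout, mostly CD14. Of 3 endothelial markers PECAM1 alone reached 1 FPKM, at 1.47 to 6.30 over the 12 libraries, and CDH5 and VWF were at or near 0. The part of LYZ, CD14 and PECAM1 in the values of the enzymes was not tested. In a bulk library, fewer cells with a transcript and less of it per cell cannot be told apart.

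Of the 105 enzymes, 43 had a mean of at least 1 FPKM in vector PLC/PRF5 cells and 46 in parental MHCC97H cells, beside 40 in the EGR1 group and 48 in the libraries labelled knockout. Over all 22963 genes the corresponding share was 50.1% in vector and 50.6% in parental cells, against 41.0% and 43.8% of the enzymes. Both control groups expressed 31 of them, 12 reached the minimum only in vector and 15 only in parental cells, and 47 reached it in neither. Over all 4 groups, 61 were expressed somewhere and 44 nowhere, and 8 were listed at 0 in all 12 libraries. The enzymes under 0.3 FPKM in every library numbered 34 and included CYP3A4, CYP1A2, CYP2C8 and CYP2A6, which are major hepatic P450 enzymes, as well as ADH1A, SULT2A1, UGT2B15 and UGT2B17. A listing at 0 in FPKM does not give a limit of detection, because the depth is unknown.

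The set of P450 enzymes was small and differed between the lines. In vector PLC/PRF5 cells the highest were CYP2S1 at 45.8 ± 6.17 FPKM (SD, n = 3), an extrahepatic P450, CYP1A1 at 11.1 ± 0.955, CYP4F3 at 6.89 ± 2.02 and the vitamin D 25-hydroxylase CYP2R1 at 6.26 ± 1.23. CYP4F12 averaged 2.71 FPKM and CYP3A5 2.97, while CYP1B1 averaged 0.0238. In parental MHCC97H cells the fatty acid hydroxylase CYP4F11 stood at 33.2 ± 2.95 FPKM, ahead of CYP2S1 at 21.5 ± 3.55, CYP3A5 at 20.4 ± 3.46 and CYP4F3 at 16.6 ± 3.57. CYP2R1 averaged 6.33 FPKM there. CYP1A1 and CYP1B1, both targets of the aryl hydrocarbon receptor AHR, ran opposite: CYP1B1 averaged 11.4 FPKM in parental cells and CYP1A1 0.628.

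Among the dehydrogenases, ALDH1A1, which oxidizes retinal, had the highest mean in both control groups, at 269 ± 18.9 FPKM in vector and 607 ± 48.9 in parental cells. The next aldehyde dehydrogenase in vector was ALDH18A1, which makes a precursor of proline, at 29.9, and the next in parental cells ALDH3A1, which acts on aromatic and medium-chain aldehydes, at 402 ± 47.8. Of the alcohol dehydrogenases, ADH5, the glutathione-dependent formaldehyde dehydrogenase, averaged 48.7 ± 3.49 and 55.8 ± 1.58 FPKM. It was followed by ADH6 at 2.83 in vector and by ADH1C, a class I ethanol-oxidizing enzyme, at 30.8 in parental cells. ALDH2, for reference, averaged 15.7 FPKM in vector and 38.0 in parental cells.

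The conjugating enzymes also differed in kind between the lines. GSTP1, the pi class glutathione S-transferase, averaged 1684 ± 79.8 FPKM in vector cells and held most of the summed GST level of 1909.6 ± 80.5, followed by GSTO1 at 98.7. In parental cells GSTP1 averaged 104 FPKM and GSTO1 63.3, in a GST sum of 325 ± 15.2. UGT1A1, the bilirubin-conjugating enzyme, was the only UGT1A member above 1 FPKM in vector cells at 31.2 ± 2.48, with UGT1A3 next at 0.588. Parental cells had UGT1A10 at 71.6 ± 7.47 and UGT1A6, which conjugates planar phenols, at 65.9 ± 9.84. Of the UGT2B enzymes, vector cells had UGT2B11 at 16.5 FPKM and UGT2B4 at 8.87, and parental cells had UGT2B7 at 17.2 with UGT2B11 at 0.0992. The leading sulfotransferases were SULT1A1 at 10.7 and SULT1A4 at 5.04 FPKM in vector, and SULT1C2 at 61.6 and SULT1A4 at 24.5 in parental cells. The nearly identical SULT1A3 was listed at 4.37 and 20.9, and the order within this pair is uncertain.

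**Figure D1:**
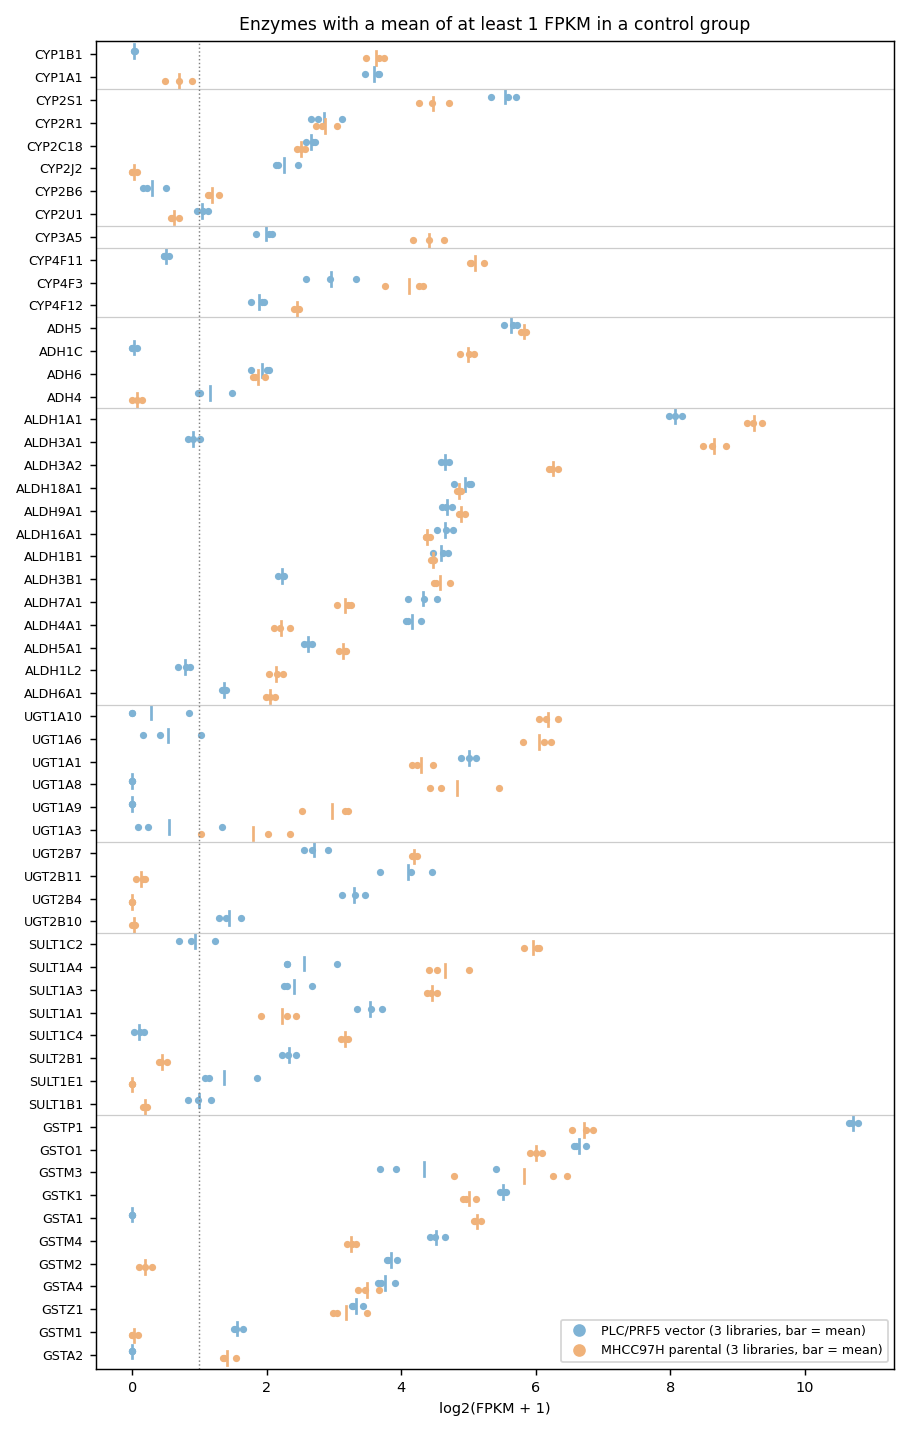
Level of the enzymes with a mean of at least 1 FPKM in a control group, as log2(FPKM + 1) on the horizontal axis, for the 3 vector PLC/PRF5 libraries (blue) and the 3 parental MHCC97H libraries (orange); points are libraries, bars their mean, the dotted line 1 FPKM, and horizontal lines part the families. GSTP1 lies highest in PLC/PRF5 (mean 1684 FPKM) and ALDH1A1 in MHCC97H (mean 607 FPKM).

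Sequence is shared within several of these families, and reads that fall there cannot be assigned to one gene with certainty. Of the 75-base windows of each transcript, 99.0% of those of SULT1A4 and 98.6% of those of SULT1A3 also occurred in another gene, so this pair is best read as a sum, which was 9.40 ± 1.72 FPKM in vector and 45.4 ± 5.00 in parental cells. The UGT1A enzymes have their own first exons and a shared remainder, and the share was 33.7% for UGT1A1, 58.7% for UGT1A6, 64.8% for UGT1A10 and 77.0% for UGT1A3. It exceeded 50% in 12 of the enzymes. It was 44.6% for GSTM2 and 41.7% for ALDH4A1, whose values are uncertain in the same way.

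The proximal promoters of 4 of these enzymes are shown because the enzymes were among those with the largest fold changes in the EGR1 comparisons described further on. Each is the 250 bases before the transcription start in RefSeq (GRCh38.p14), written 5′ to 3′ on the strand of the gene, with matches to the motifs named below in capitals. GSTP1 is at chr11:67583562-67583811 on the plus strand, CYP1A1 at chr15:74725529-74725778 on the minus strand, ADH1C at chr4:99352747-99352996 on the minus strand and SULT1C4 at chr2:108377704-108377953 on the plus strand. Each of these windows overlaps the span of its gene in the GENCODE annotation, whose starts lie further upstream.
GSTP1: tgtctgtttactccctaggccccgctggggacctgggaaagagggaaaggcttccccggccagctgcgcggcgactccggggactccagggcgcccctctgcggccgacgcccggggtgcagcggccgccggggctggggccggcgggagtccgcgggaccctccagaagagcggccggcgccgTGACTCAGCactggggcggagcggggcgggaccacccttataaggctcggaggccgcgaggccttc
CYP1A1: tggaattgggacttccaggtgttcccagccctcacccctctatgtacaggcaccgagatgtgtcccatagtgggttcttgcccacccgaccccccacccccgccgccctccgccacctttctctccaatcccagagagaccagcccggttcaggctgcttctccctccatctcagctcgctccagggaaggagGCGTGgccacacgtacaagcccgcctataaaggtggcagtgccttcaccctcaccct
ADH1C: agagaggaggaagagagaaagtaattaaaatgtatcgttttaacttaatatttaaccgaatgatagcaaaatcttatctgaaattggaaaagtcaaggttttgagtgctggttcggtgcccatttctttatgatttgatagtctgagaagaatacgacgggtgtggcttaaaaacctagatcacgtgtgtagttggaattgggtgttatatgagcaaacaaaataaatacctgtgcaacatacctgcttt
SULT1C4: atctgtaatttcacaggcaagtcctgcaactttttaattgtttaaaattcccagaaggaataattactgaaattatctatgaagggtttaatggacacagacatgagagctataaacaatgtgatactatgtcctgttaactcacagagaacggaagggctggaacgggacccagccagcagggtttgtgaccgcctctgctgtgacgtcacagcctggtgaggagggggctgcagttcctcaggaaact

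The motif cores were searched on both strands in the window of 250 bases before to 50 after the start, which was available for 86 of the 105 enzymes and for 27305 promoters in all. The GCGNGGGCG core of the EGR1 consensus occurred in 1 of the 86, ALDH1A3, and in 9.28% of all promoters. The GCGTG core of the AHR response element occurred in 23 of the 86 (26.7%) and in 36.3% of all, and the TGACNNNGC core of the antioxidant response element in 14 (16.3%) and in 13.6% of all. GSTP1 carried the antioxidant core as TGACTCAGC starting 66 bases before the start, and CYP1A1 carried GCGTG starting 57 bases before it. ADH1C and SULT1C4 matched none of the cores. CYP2B6, whose promoter is not shown, carried the antioxidant core on the opposite strand, as GCAGGGTCA starting 41 bases before the start. The promoters differ in composition as well, with 74.8% GC in GSTP1 and 35.6% in ADH1C. A match of letters is a description and is not a binding site.

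The parental MHCC97H and vector PLC/PRF5 libraries were compared to set these levels against the replicate spread. The cell line, its preparation and the empty vector cannot be told apart in this comparison. Fold changes are differences of log2(FPKM + 1), which understate the change of low genes, and genes with a mean of at least 1 FPKM over the 6 libraries were tested. Of 50 enzymes that passed this filter, 42 (84.0%) were called at a limma adjusted p under 0.05, 26 higher in MHCC97H and 16 lower, where 79.8% of all 12046 genes were called, 38.8% higher and 40.9% lower. The share of enzymes called was thus near that of all genes. A change of at least 2-fold was called in 34 of the 50 enzymes, and in 36.8% of all genes. The groups did not overlap in 42 of them, and in 81.0% of all genes. Only 31 enzymes reached a mean of 1 FPKM in both control groups. An enzyme expressed in only 1 line could pass the filter through that line. For such an enzyme, or any such gene, a large difference without overlap follows in part from the filter. These counts are therefore a description. The median log2 fold change was 0.37 over the enzymes and -0.02 over all genes.

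ALDH3A1 differed most. Its FPKM was 0.771, 1.01 and 0.871 in vector and 359, 394 and 454 in parental MHCC97H libraries, which is 7.74 ± 0.10 (SE) as a log2 fold change (limma adjusted p = 2.35e-10). GSTA1, an alpha class glutathione S-transferase of hepatocytes, was listed at 0 in all 6 PLC/PRF5 libraries and at 33.0, 33.2 and 35.4 FPKM in parental cells. SULT1C2 was higher in MHCC97H, at 0.614, 0.836 and 1.34 in vector against 65.2, 63.8 and 55.9 FPKM (log2 fold change 5.03 ± 0.14, limma adjusted p = 8.11e-09). ADH1C was at or near 0 in vector cells, at 0.0475, 0 and 0 FPKM, and at 28.5, 31.0 and 32.9 in parental cells (limma adjusted p = 1.02e-09). None of these 4 enzymes had overlapping groups. Each averaged under 1 FPKM in vector and passed the filter through the parental cells, where it was high.

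Several UGT1A members followed the same split. UGT1A10 was listed at 0, 0 and 0.805 FPKM in vector and 65.1, 79.8 and 70.0 in parental libraries (limma adjusted p = 3.85e-08). UGT1A6 read 0.118, 0.336 and 1.04 and 73.8, 69.0 and 54.8 FPKM (limma adjusted p = 4.94e-08). UGT1A8, an intestinal form, was listed at 0 in every vector library and at 43.0, 20.4 and 23.1 FPKM in parental ones. The omega-hydroxylase CYP4F11 read 0.388, 0.463 and 0.387 FPKM in vector and 31.7, 36.6 and 31.4 in parental libraries, 4.60 ± 0.10 as a log2 fold change (limma adjusted p = 1.82e-09). UGT1A1 went the other way, from 31.1, 33.7 and 28.7 to 17.8, 16.8 and 21.3 FPKM (log2 fold change -0.72 ± 0.11, limma adjusted p = 0.000275).

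The largest falls on the log2(FPKM + 1) scale were in GSTP1 and UGT2B11. GSTP1 read 1666, 1771 and 1615 FPKM in vector and 92.2, 106 and 114 in parental cells, -4.01 ± 0.09 as a log2 fold change (limma adjusted p = 2.47e-09). UGT2B11 fell from 11.9, 21.0 and 16.6 to 0.0424, 0.140 and 0.115 FPKM (limma adjusted p = 1.14e-07). The bile acid and steroid conjugating UGT2B4 was listed at 0 in all 6 MHCC97H libraries. The 8 enzymes that were tested and not called had log2 fold changes between -0.26 and 0.19, ADH5 and ADH6 among them. Of the 42 calls, 38 held when any 1 of the 6 libraries was left out, and ALDH16A1, ALDH9A1, GSTM3 and UGT1A3 were lost at least once. GSTK1, the kappa class enzyme of mitochondria and peroxisomes, had a log2 fold change of -0.52 as deposited and 0.14 after a correction for transcript GC content and length, so its direction rests on that choice. With this correction 43 enzymes were called, 27 higher and 16 lower, beside 81.4% of all genes, 38.0% higher and 43.4% lower. Calls were gained in ADH6, CYP2C18 and GSTZ1.

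The EGR1 group was compared with vector in PLC/PRF5 cells, where EGR1 rose to a mean of 52.9 FPKM (log2 fold change 4.27 ± 0.11, limma adjusted p = 1.58e-07). Whether the replicates of a group came from 1 transduced population is not given in the sources used here. The spread between such populations was not tested. Of 42 enzymes tested, 20 (47.6%) were called, 7 higher and 13 lower, where 29.6% of all 11671 genes were called, 19.2% higher and 10.4% lower. None of the 20 changed by 2-fold on the log2(FPKM + 1) scale, against 1.77% of all genes. The groups did not overlap in 25 of the 42 enzymes, and in 47.7% of all genes. The median log2 fold change was -0.22 over the enzymes and 0.09 over all genes. Quantile normalization moved the calls over all genes from 2240 higher and 1217 lower to 1506 higher and 1767 lower, and those of the enzymes to 8 higher and 18 lower. Glutathione S-transferases gave 5 of the lower calls and 1 higher, aldehyde dehydrogenases 4 lower and 3 higher, and none of 4 tested CYP2 enzymes was called.

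GSTP1 changed most. It is ENSG00000084207.16 on chromosome 11 from 67583595 to 67586656 of GRCh38. Its FPKM was 1666, 1771 and 1615 in vector and 790.3, 941 and 944 in EGR1 libraries, so every EGR1 library was lower than every vector library (log2 fold change -0.92 ± 0.12, limma adjusted p = 0.00142). The GST sum fell with it, from 1909.6 ± 80.5 to 1112 ± 105 FPKM, since GSTP1 makes up most of that sum. GSTM2, a mu class enzyme, fell from 14.3, 12.8 and 13.0 to 7.35, 8.73 and 9.35 FPKM (log2 fold change -0.60 ± 0.11, limma adjusted p = 0.00433). GSTM4, GSTZ1 and GSTK1 were also called lower, at -0.32, -0.32 and -0.26 on the log2 scale, and each lost its call when 1 library was left out and with the GC and length correction. GSTO1 was called higher at 0.32, and its call too was lost when 1 of 4 libraries was left out. GSTM3 was not called (limma adjusted p = 0.197): its vector libraries read 11.9, 14.1 and 41.4 FPKM and its EGR1 libraries 11.3, 12.4 and 11.4. Vector replicate 3 thus stood apart, replicate 1 lay within the range of the EGR1 group and replicate 2 just above it.

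CYP1A1 and CYP4F3, both P450 enzymes, rose. CYP1A1, which oxidizes polycyclic aromatic hydrocarbons, read 11.5, 9.99 and 11.7 FPKM in vector and 19.3, 21.1 and 22.9 in EGR1 libraries (log2 fold change 0.87 ± 0.10, limma adjusted p = 0.00071). CYP4F3, a leukotriene B4 omega-hydroxylase, read 4.99, 9.01 and 6.69 and 13.3, 13.1 and 13.0 FPKM (log2 fold change 0.87 ± 0.16, limma adjusted p = 0.00565). For CYP4F3 the vector libraries differed far more among themselves than the EGR1 libraries did, and the groups did not overlap. The other CYP1 enzymes were under the filter, and CYP4F12 was called lower at -0.32, a call lost with the correction. The receptor AHR, which drives CYP1A1, averaged 26.4 and 30.1 FPKM and was not called (limma adjusted p = 0.436). Its part in the CYP1A1 change was not tested.

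UGT1A1 rose from 31.1, 33.7 and 28.7 to 42.9, 45.1 and 45.7 FPKM (log2 fold change 0.50 ± 0.09, limma adjusted p = 0.0041). The other 8 UGT1A members summed to 1.46 ± 1.66 FPKM in vector and 1.11 ± 0.479 in EGR1 libraries. UGT2B4 fell from 7.69, 9.96 and 8.97 to 4.43, 5.10 and 5.04 FPKM, with no overlap (log2 fold change -0.75 ± 0.11, limma adjusted p = 0.00226). The phenol sulfotransferase SULT1A1 was called lower at -0.50, a call lost when 1 of 3 libraries was left out.

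Of the alcohol dehydrogenases, ADH6 fell from 3.11, 2.40 and 3.00 to 1.34, 1.26 and 1.49 FPKM (log2 fold change -0.69 ± 0.11, limma adjusted p = 0.00299), while ADH4 and ADH5 were not called. ALDH4A1, which completes proline breakdown to glutamate, read 16.2, 15.8 and 18.5 and 8.46, 10.6 and 12.8 FPKM (log2 fold change -0.63 ± 0.14, limma adjusted p = 0.0107). ALDH16A1, an atypical member of the family, fell from 24.3, 26.2 and 22.2 to 15.9, 16.1 and 17.8 FPKM (limma adjusted p = 0.00468). Rises were called in ALDH3A1, from 0.771, 1.01 and 0.871 to 1.65, 1.76 and 2.42 FPKM (log2 fold change 0.64 ± 0.12, limma adjusted p = 0.00665), in the succinic semialdehyde dehydrogenase ALDH5A1 at 0.48 and in the fatty aldehyde dehydrogenase ALDH3A2 at 0.41. ALDH6A1, of valine breakdown, and ALDH18A1 were called lower at -0.40 and -0.37. Both lost the call when single libraries were left out.

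The 22 enzymes that were not called had log2 fold changes between -0.67, in GSTM3, and 0.27, in ALDH1A1. Of the 20 calls, 12 held whichever of the 6 libraries was left out. The count of enzymes called fell to 13 without vector replicate 3 and to 13 without EGR1 replicate 3. With the GC and length correction 22 enzymes were called, 9 higher and 13 lower, beside 37.4% of all genes, 25.6% higher and 11.7% lower. Calls were gained in ALDH1A1, ALDH1B1, CYP3A5, SULT1E1, UGT2B10 and UGT2B11.

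**Figure D2:**
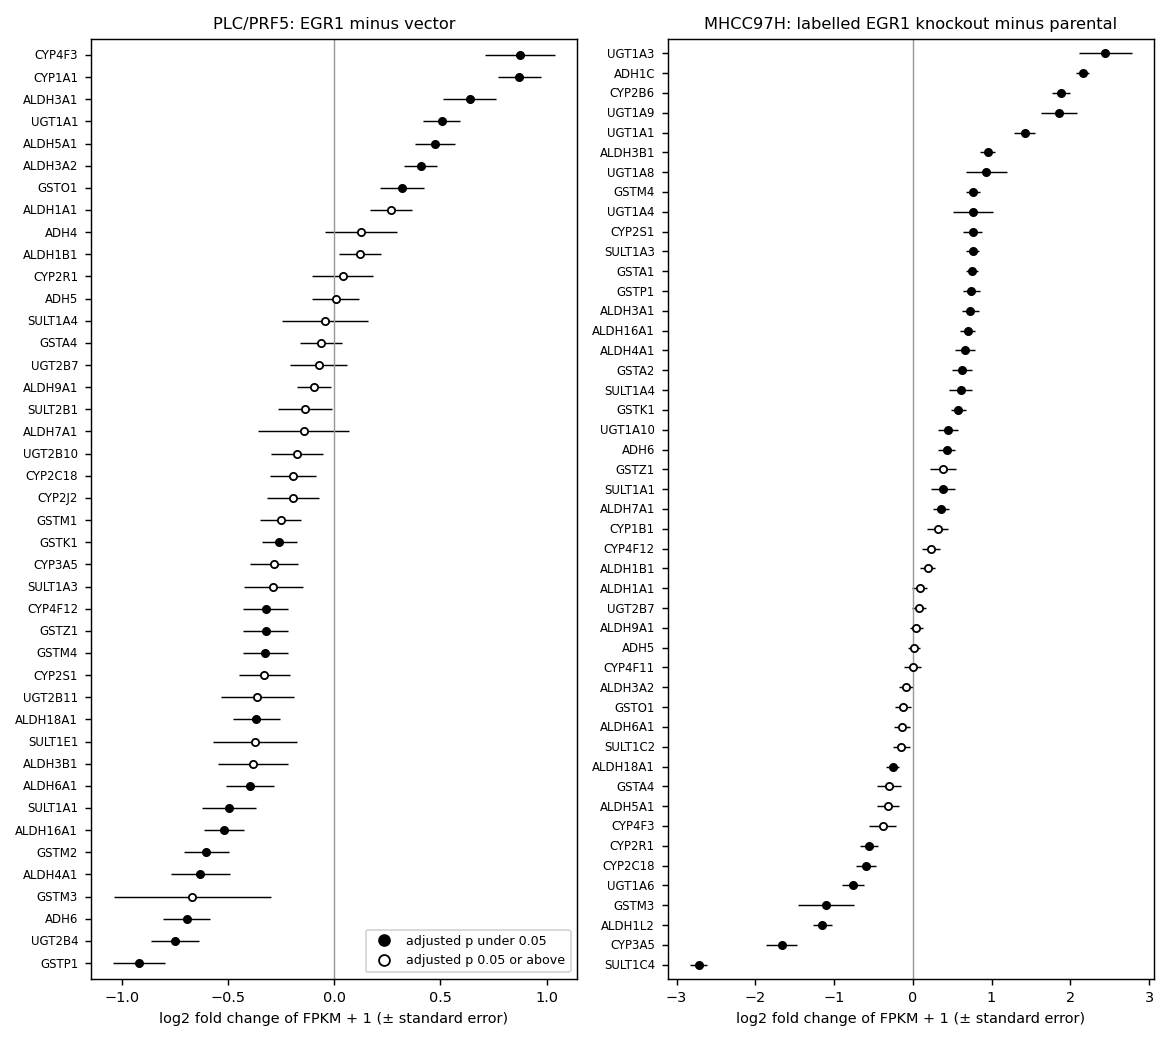
Log2 fold change of FPKM + 1, with its standard error as bars, of every enzyme tested in PLC/PRF5 cells (left, EGR1 minus vector) and in MHCC97H cells (right, labelled knockout minus parental); filled points had a limma adjusted p under 0.05. The axes differ in scale: the PLC/PRF5 values run from -0.92 in GSTP1 to 0.87 in CYP4F3, and the MHCC97H values from -2.72 in SULT1C4 to 2.44 in UGT1A3.

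The libraries labelled EGR1 knockout were compared with parental MHCC97H libraries in the same way. The paper describes the knockout cells as infected with a guide RNA virus and then cloned, and the other group is labelled parental. The EGR1 edit, the infection and the choice of clone cannot be told apart in this comparison. Whether the replicates came from the same clone is not given in the sources used here, and the spread between clones was not tested. Of 47 enzymes tested, 31 (66.0%) were called, 23 higher and 8 lower, and 66.3% of all 11577 genes were called, 34.8% higher and 31.5% lower. The share of enzymes called was close to that of all genes. A change of at least 2-fold was called in 9 enzymes, or 19.1%, and in 8.89% of all genes. The groups did not overlap in 33 of the 47, and in 71.8% of all genes. The median log2 fold change was 0.35 over the enzymes and 0.02 over all genes. Scaling every library to the same total moved these medians to 0.22 and -0.11, gave 20 enzymes higher and 13 lower, and turned the split over all genes from 4029 higher and 3642 lower to 3150 higher and 4447 lower. With quantile normalization 23 enzymes were called higher and 13 lower.

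Most of the UGT1A enzymes, encoded in 1 cluster on chromosome 2, rose. Their summed FPKM was 213, 193 and 183 in parental libraries and 292, 279 and 305 in those labelled knockout. All 7 tested members were called, 6 higher and 1 lower, where 66.3% of all genes were called, 34.8% higher and 31.5% lower. UGT1A5 and UGT1A7 were under the filter, and their means were lower under the knockout label. They went from 0.145 to 0.0589 FPKM and from 0.550 to 0.262. UGT1A4, at a mean of 0.854 in parental libraries, passed the filter through the libraries labelled knockout, at 1.98. UGT1A3, which conjugates bile acids, read 3.04, 1.03 and 4.07 and 18.0, 12.4 and 25.3 FPKM (log2 fold change 2.44 ± 0.33, limma adjusted p = 0.000303). UGT1A9, a broad drug-conjugating enzyme, read 7.98, 4.76 and 8.22 and 26.1, 37.7 and 20.6 (log2 fold change 1.86 ± 0.23, limma adjusted p = 0.000192). UGT1A1 rose from 17.8, 16.8 and 21.3 to 50.5, 44.2 and 60.8 FPKM (log2 fold change 1.42 ± 0.13, limma adjusted p = 5.15e-05). UGT1A8 rose from 43.0, 20.4 and 23.1 to 45.6, 46.9 and 69.7 FPKM, where the highest parental library lay just under the lowest labelled knockout (limma adjusted p = 0.0108). UGT1A6 was the exception and fell from 73.8, 69.0 and 54.8 to 32.8, 45.9 and 37.1 FPKM (log2 fold change -0.76 ± 0.14, limma adjusted p = 0.00168). UGT1A10 and UGT1A4 were called higher at 0.44 and 0.77, and the UGT1A4 call was lost without parental replicate 2 or without labelled knockout replicate 1. Since these genes share sequence, the split between members is less certain than the sum.

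**Figure D3:**
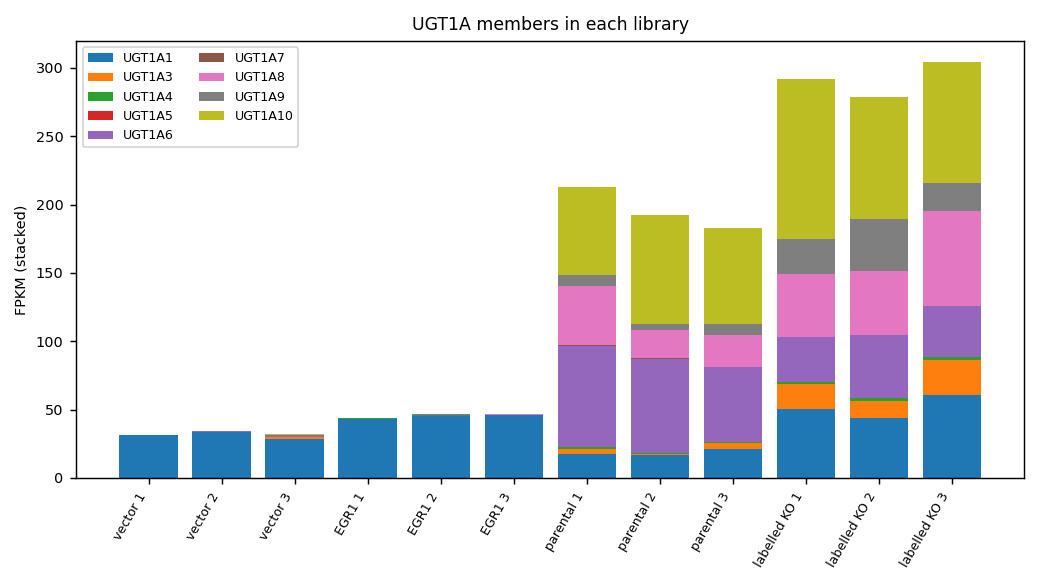
FPKM of the 9 UGT1A members, stacked for each of the 12 libraries. Nearly all of the PLC/PRF5 bars is UGT1A1, with sums of 31.7, 34.1 and 32.1 FPKM in vector, while the MHCC97H bars hold several members and reach 292, 279 and 305 FPKM in the libraries labelled knockout.

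ADH1C, the class I alcohol dehydrogenase (ENSG00000248144.5 on chromosome 4 from 99336492 to 99353027), rose from 28.5, 31.0 and 32.9 to 139, 143 and 139 FPKM, far beyond the spread of either group (log2 fold change 2.16 ± 0.08, limma adjusted p = 7.58e-07). ADH6 was called higher at 0.43 and ADH5 was not called. ALDH3B1, which acts on lipid aldehydes, rose from 21.4, 21.9 and 25.5 to 45.1, 44.7 and 45.6 FPKM (log2 fold change 0.95 ± 0.09, limma adjusted p = 5.76e-05). ALDH1L2, the mitochondrial formyltetrahydrofolate dehydrogenase, fell from 3.72, 3.47 and 3.08 to 1.07, 1.17 and 0.761 FPKM (log2 fold change -1.15 ± 0.12, limma adjusted p = 9.6e-05). ALDH1A1, at 645 ± 28.3 FPKM beside 667 ± 48.8 for ALDH3A1, was not called, and ALDH3A1 was called higher at 0.73.

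The P450 enzymes moved in both directions. CYP2B6, which metabolizes bupropion and efavirenz, rose from 1.44, 1.18 and 1.22 to 8.12, 6.61 and 7.59 FPKM (log2 fold change 1.89 ± 0.11, limma adjusted p = 1.15e-05). CYP3A5, the one CYP3 enzyme expressed in these cells, fell from 24.0, 20.3 and 17.0 to 5.25, 8.21 and 4.22 FPKM (log2 fold change -1.67 ± 0.20, limma adjusted p = 0.000162). CYP2S1 was called higher at 0.76, and CYP2C18 and CYP2R1 lower at -0.59 and -0.55, and the CYP2S1 and CYP2C18 calls were lost with a correction for transcript GC content and length. NR1I3 and NR1I2, the receptors known to induce CYP2B6, averaged under 1 FPKM in both MHCC97H groups, at 0.193 and 0.0741 for NR1I3 and 0.938 and 0.607 for NR1I2. The parental libraries read 1.01, 1.12 and 0.682 for NR1I2. Receptor activity was not measured, and the part of these receptors in the CYP2B6 change was not tested.

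SULT1C4 (ENSG00000198075.9 on chromosome 2 from 108377911 to 108388057), a sulfotransferase best known from fetal tissues, showed the largest change of any enzyme in this comparison. It read 7.93, 7.59 and 8.25 FPKM in parental libraries and 0.326, 0.488 and 0.257 in those labelled knockout (log2 fold change -2.72 ± 0.11, limma adjusted p = 1.06e-06). SULT1C2 of the same subfamily was not called at -0.15. SULT1A3 and SULT1A4 were both called higher but are best read as a sum. This sum was 45.4 ± 5.00 FPKM in parental libraries and 73.3 ± 3.56 in those labelled knockout. The glutathione S-transferases GSTA1, GSTA2, GSTM4, GSTP1 and GSTK1 were called higher, at log2 fold changes of 0.75, 0.63, 0.77, 0.74 and 0.58, and the GSTP1 and GSTK1 calls were lost with the correction. GSTM3 was called lower at -1.10 ± 0.36, yet its groups overlapped: the parental libraries read 87.0, 75.1 and 26.4 FPKM and those labelled knockout 23.8, 25.6 and 27.2. That call was lost when parental replicate 1, parental replicate 2 or labelled knockout replicate 1 was left out. The 16 enzymes not called had log2 fold changes between -0.38 and 0.39. Of the 31 calls, 26 held whichever library was left out.

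**Figure D4:**
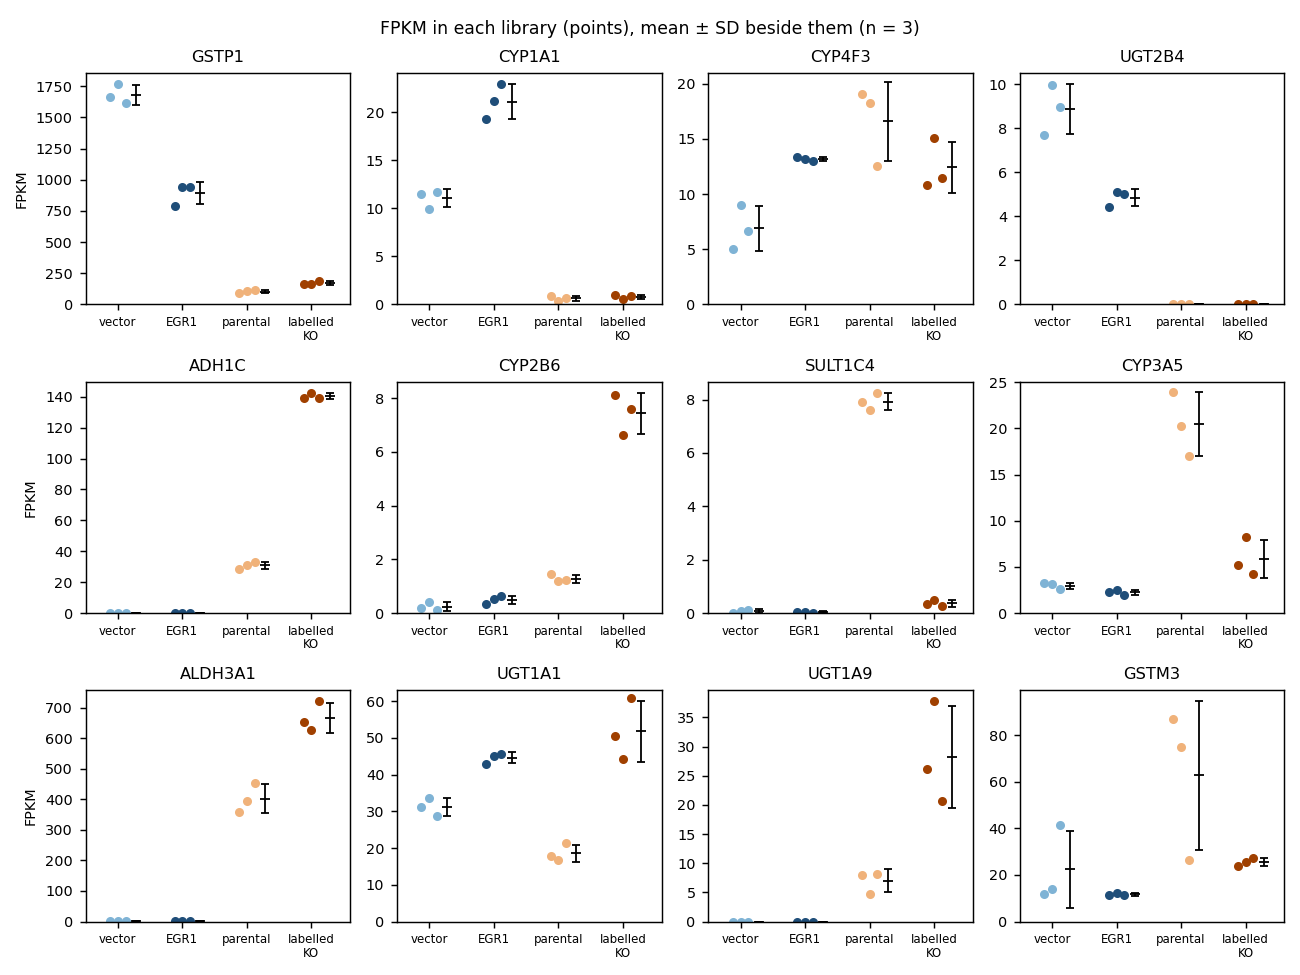
FPKM of 12 of the enzymes in each library (points, replicates 1 to 3 from left to right), with the mean and SD (n = 3) beside them, on linear axes from 0 that differ between panels. GSTP1 and UGT2B4 are lower in the EGR1 group than in vector and ADH1C and CYP2B6 stand highest in the libraries labelled knockout, while GSTM3 has 1 vector library at 41.4 and 1 parental library at 26.4 FPKM away from the others.

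Transcript GC content moved with the MHCC97H fold changes. GC content and length together accounted for 54.3% of the variance of the fold change over 10806 genes, against 18.5% over 10829 genes in PLC/PRF5 and 8.21% over 11214 genes between the control groups. Across genes, which are not independent replicates, Spearman's rho of fold change with GC content was 0.77 in MHCC97H and -0.45 in PLC/PRF5, and over the enzymes tested it was 0.40 and -0.15. After a trend on GC content and length was removed from each library, 26 enzymes were called in MHCC97H, 20 higher and 6 lower, beside 45.9% of all genes, 27.6% higher and 18.3% lower. Their median log2 fold change became 0.11. Of the 31 calls, 21 were kept in the same direction and 10 were lost. These were GSTP1, from 0.74 to 0.05, ALDH3A1, from 0.73 to 0.09, ALDH16A1, from 0.70 to 0.09, CYP2C18, from -0.59 to -0.30, GSTK1, from 0.58 to 0.11, CYP2S1, ALDH4A1, GSTM3, SULT1A4 and SULT1A1, which turned from 0.38 to -0.21. SULT1C4, UGT1A3, ADH1C, CYP2B6, UGT1A9 and CYP3A5 kept their calls, at -2.56, 2.55, 2.28, 1.80, 2.06 and -1.30. Calls were gained in ADH5, ALDH1A1, ALDH6A1, CYP1B1 and UGT2B7, which were not called as deposited. The correction also removes biological change that follows GC content, and the part of either in these fold changes was not tested.

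**Figure D5:**
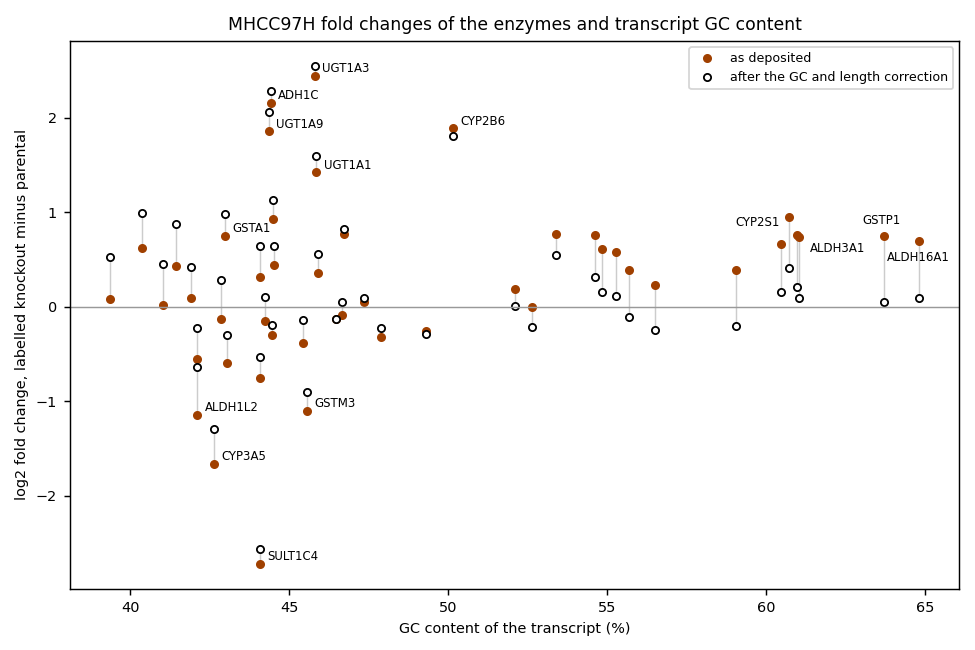
Log2 fold change of the 47 enzymes tested in MHCC97H (labelled knockout minus parental) against the GC content of their transcript in percent, as deposited (filled) and after the GC and length correction (open, joined by a line). GSTP1 (0.74 to 0.05) moves to near 0 and SULT1A1 (0.38 to -0.21) below it, while ALDH3B1 (0.95 to 0.41), ADH1C (2.16 to 2.28) and SULT1C4 (-2.72 to -2.56) keep their calls.

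The 2 EGR1 comparisons shared no library, and 32 enzymes were tested in both. Of these, 10 were called in both, 7 of them lower with EGR1 overexpression but higher under the knockout label (ADH6, ALDH16A1, ALDH4A1, GSTK1, GSTM4, GSTP1 and SULT1A1). ALDH3A1 and UGT1A1 were higher in both and ALDH18A1 lower in both. Over all genes, 2225 of 10369 (21.5%) were called in both, and 83.6% of those had opposite directions. With the GC and length correction 6 enzymes were called in both, of which ADH6 and ALDH6A1 were opposite, while ALDH1A1 and UGT1A1 were higher in both and ALDH18A1 and CYP3A5 lower in both. Over all genes, 1773 of 9841 (18.0%) were then called in both, 61.2% of those in opposite directions. For ADH6 the values were -0.69 and 0.43 as deposited, and -0.80 and 0.88 after correction. Because EGR1 mRNA was higher in both the EGR1 group and the libraries labelled knockout, these directions are given by label, and the difference between the comparisons was not itself tested.

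Regulators, partners and transporters of the same pathways were read from a list of 69 genes. In PLC/PRF5 cells 11 of 51 tested were called higher with EGR1 and 8 lower, beside 19.2% and 10.4% of all genes. The antioxidant regulator NFE2L2 rose from a mean of 43.4 to 87.5 FPKM (log2 fold change 1.01 ± 0.13, limma adjusted p = 0.0012), and so did both subunits of the enzyme that limits glutathione synthesis, GCLM at 1.37 and GCLC at 1.01. HNF4A, a liver nuclear receptor, and POR were not called, at 0.26 and -0.19.

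In MHCC97H cells 24 of 52 were called higher in the libraries labelled knockout and 14 lower, beside 34.8% and 31.5% of all genes. All 3 electron partners of P450 enzymes rose: POR from 74.1 to 162 FPKM (log2 fold change 1.11 ± 0.09, limma adjusted p = 3.21e-05), CYB5R3 at 1.41 and CYB5A at 1.20, and their calls held with the GC and length correction at 0.53, 0.95 and 1.47. The epoxide hydrolase EPHX1 rose by 1.09 on the log2 scale. MAOB, a monoamine oxidase, the conjugate exporter ABCC2 and NFE2L2 fell, at -1.29, -1.12 and -1.07. AHR was called lower at -0.41 as deposited and higher at 0.30 after the correction, and HNF4A was not called.

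Between the control groups 24 of 55 listed genes were higher in MHCC97H and 20 lower, beside 38.8% and 40.9% of all genes. The carboxylesterase CES1 rose from a mean of 0.710 to 298 FPKM, the conjugate exporter ABCC3 from 0.187 to 42.9, and GCLM from 12.1 to 144, with log2 fold changes of 7.46, 5.21 and 3.46. MAOB and the bile acid receptor NR1H4 were higher as well, at 4.09 and 2.82. The nicotinamide methyltransferase NNMT fell by 3.18 and HNF4A by 2.12 on the log2 scale, and POR was higher at 0.71. AHR and NFE2L2 were not called, at 0.25 and 0.31, and AHR was called lower at -0.39 with the GC and length correction.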

How the data were processed

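Total RNA from 12 cell line libraries, 3 in each of 4 groups taken from the sample labels, was selected with oligo(dT), treated with duplex-specific nuclease and sequenced on an Illumina NovaSeq. The authors deposited FPKM per gene for all 12 libraries in 1 table. The submitters' processing notes name StringTie and hg38, and the aligner and annotation are not given in the sources used here. The depth is unknown, because low FPKM values showed no steps of whole reads, so no counting error is given. Precision rests on 3 libraries a group, and p-values measure the spread between these libraries. Here log2(FPKM + 1) was fitted with limma 3.58.1 in R 4.3.3 with an intensity trend, for each comparison alone, over genes with a mean of at least 1 FPKM in its 6 libraries. Tests were 2-sided with Benjamini-Hochberg adjustment over all genes tested, and a gene was called at an adjusted p under 0.05. An exact permutation of 3 libraries against 3 cannot go below 0.1. The study's methods name gene set enrichment analysis, and its comparisons of 2 groups used Student's test; no test per gene of the RNA-seq values is described there. Annotation came from GENCODE 29 and promoters from RefSeq, both on GRCh38. The fits were tested on simulated data. The enzymes and gene lists were chosen with earlier results of these data known. Per comparison, up to 10 called enzymes with the largest fold changes and no overlap were named with every library, and in each family the 2 most abundant in each control group were named with their level. GSTM3 was singled out after its values were seen. The correction for transcript GC content and length fitted splines of 5 degrees of freedom to how far each library departed from the mean of the 6, and subtracted them. Other alternatives were a pseudocount of 0.1, other filters and thresholds, scaling to the same total, quantile normalization, no trend, 1 fit of 12 libraries, the replicate number as a block and leaving out each library.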

Additional observations from a re-analysis of the deposited data

How the results depend on the processing

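Over the log2 fold changes of all tested enzymes and the counts of calls, 2311 values were recomputed under the alternatives, of which 2032 kept their direction and side of the threshold (or a count within 1.5 times), 128 lost and 69 gained a call, 67 turned direction and 15 counts moved by more than 1.5 times. The cause was not tested. A mean of at least 5 FPKM left 2260 genes called with EGR1 overexpression, fewer genes being tested. A threshold of 0.01 left 1468 genes and 11 enzymes there. A minimum of 2-fold left 206 genes and 0 enzymes there, 1029 genes and 9 enzymes in the libraries labelled knockout, and 4431 genes between the control groups. In the libraries labelled knockout, the GC and length correction gave 4964 genes called, and 5041 with the replicate block. Leaving out 1 library gave 1944 to 4007 genes and 13 to 16 enzymes with EGR1 overexpression, the genes falling to 2240 without vector replicate 3, 1944 without EGR1 replicate 2 and 2213 without EGR1 replicate 3. It gave 26 to 33 enzymes in the libraries labelled knockout and 38 to 42 between the control groups.

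Directions turned in the values listed next as log2 fold changes, and of the enzymes called as deposited only SULT1A1 in the libraries labelled knockout and ALDH16A1 and GSTK1 between the control groups were among them. The GC and length correction, alone or with the replicate block, turned, with EGR1 overexpression, ADH5 (-0.10), CYP2R1 (-0.024), SULT1A4 (0.088), SULT2B1 (0.021), in the libraries labelled knockout, ALDH3A2 (0.046), ALDH6A1 (0.28), CYP4F12 (-0.25), GSTZ1 (-0.11), SULT1A1 (-0.21), SULT1C2 (0.099), and between the control groups, ADH5 (-0.088), ALDH16A1 (0.025), ALDH1B1 (0.064), CYP2R1 (-0.15), GSTK1 (0.14), GSTZ1 (0.45). Quantile normalization turned, with EGR1 overexpression, ADH4 (-0.0071), ADH5 (-0.0089), CYP2R1 (-0.11), in the libraries labelled knockout, ADH5 (-0.23), ALDH1A1 (-0.15), ALDH9A1 (-0.13), UGT2B7 (-0.0015), and between the control groups, ALDH18A1 (0.071), CYP2R1 (-0.031). Scaling to the same total turned, with EGR1 overexpression, ADH5 (-0.021), in the libraries labelled knockout, ADH5 (-0.14), ALDH1A1 (-0.064), ALDH9A1 (-0.10), UGT2B7 (-0.067), and between the control groups, ADH6 (0.0093), ALDH18A1 (0.026). Leaving out 1 library turned, with EGR1 overexpression, GSTA4 (-0.11 to 0.010), CYP2R1 (-0.065 to 0.17), ADH5 (-0.050 to 0.11), ADH4 (-0.016 to 0.29), SULT1A4 (-0.16 to 0.20), ALDH7A1 (-0.38 to 0.083), UGT2B7 (-0.17 to 0.028), in the libraries labelled knockout, ADH5 (-0.0081 to 0.030), CYP4F11 (-0.051 to 0.10), and between the control groups, CYP2R1 (-0.070 to 0.16).

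The replicate number as a block called 15 enzymes and 3253 genes with EGR1 overexpression, 34 and 7987 in the libraries labelled knockout and 40 and 9249 between the control groups. Deviations of same-numbered libraries correlated between -0.39 and 0.47 over the 3 comparisons, so the numbers were not taken to pair the libraries. Depth is unknown and limits what can be said of enzymes near 0 FPKM.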
